A study of Bos taurus with 3 samples.

Results

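ANKRD1 and FST high cells were taken from a culture of mesenchymal stromal cells grown from bovine adipose tissue. Every adipose cell was given a score, the mean over ANKRD1 and FST of the natural log of 1 plus the gene's UMIs (unique molecular identifiers, each standing for 1 captured RNA molecule) per 10000 UMIs of the cell. The 609 highest of 6088 adipose cells, 10.0%, are the members. They are set against the 5479 other adipose cells, and against 609 of those chosen to match the members on TOP2A, a gene of dividing cells. The whole series held 18561 cells in 3 libraries from 1 healthy Holstein-Friesian cow in its first lactation, 1 library from each of its adipose tissue, its bone marrow and its blood. All 3 cultures were untreated and wild type, and grew in DMEM of low glucose that held 30% fetal bovine serum until colonies could be seen. Plastic-adherent cultures of this kind are the growing progeny of the tissue's cells, not the tissue itself. With 1 library per tissue and 1 animal there is no replicate, so no difference was tested. Intervals beside ratios and shares are exact 95% intervals that cover counting error only.

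ANKRD1 encodes cardiac ankyrin repeat protein, which binds titin in striated muscle and is also made by other cells under mechanical load. It is a much used readout of YAP and TAZ, transcriptional co-activators that work with TEAD factors when cells spread on a stiff surface. FST encodes follistatin, a secreted protein that binds and neutralises activins, dimers built from the product of INHBA. Stromal cells in culture can also make the contractile proteins of smooth muscle, whose genes are classic targets of the SRF and MRTF transcription factors.

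The 2 genes that chose the members were unequal in them, and their values here describe the choice. FST (ENSBTAG00000003329) stood at 1237 CPM (the gene's UMIs summed over a group of cells and scaled to the same total in every group) in members, against 157 CPM in other adipose cells. The middle member held 18 FST UMIs, and the middle other cell held 1. ANKRD1 (ENSBTAG00000011734) stood at 275 CPM in members, against 7.69 CPM in other adipose cells. Only 239 of the 609 members (39.2%) held any ANKRD1 UMI, against 251 other cells (4.58%), while 598 members (98.2%) and 61.2% of other cells held an FST UMI. With each cell thinned to 3000 UMIs, 25.1% of members and 1.30% of other cells held ANKRD1, and 88.0% of members and 28.9% of other cells held FST. In the strict sense of the label "ANKRD1 and FST high", 228 members (37.4%) held UMIs of both genes. A further 370 members (60.8%) held FST and no ANKRD1 UMI, and 11 (1.81%) held ANKRD1 and no FST UMI.

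The members are the upper end of a range with no gap. The 3 lowest members scored 1.14800, 1.14811 and 1.14826, and the 3 highest other cells scored 1.14745, 1.14723 and 1.14715. Within 0.1 of the threshold lay 153 members and 198 other cells. The median score was 1.37 in members, where the highest was 3.35, and 0.288 in other cells. A score of 0 was found in 2053 adipose cells (33.7%). Over all adipose cells the levels of the 2 genes had a Pearson r of 0.131, a weak value in sparse counts that share each cell's depth. When members were chosen again on a random 1 of 2 equal parts of each cell's UMIs, 500 of the 609 were the same cells. This overlap is partly built in, since the full counts that chose the members include that part. In the part not used for that choice, FST stood at 1157 CPM in members and 167 CPM in the others (ratio 6.92, interval 6.69 to 7.16). ANKRD1 in that part stood at 250 CPM in members and 11.1 CPM in the others (ratio 22.6, interval 20.4 to 25.2).

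**Figure D1:**
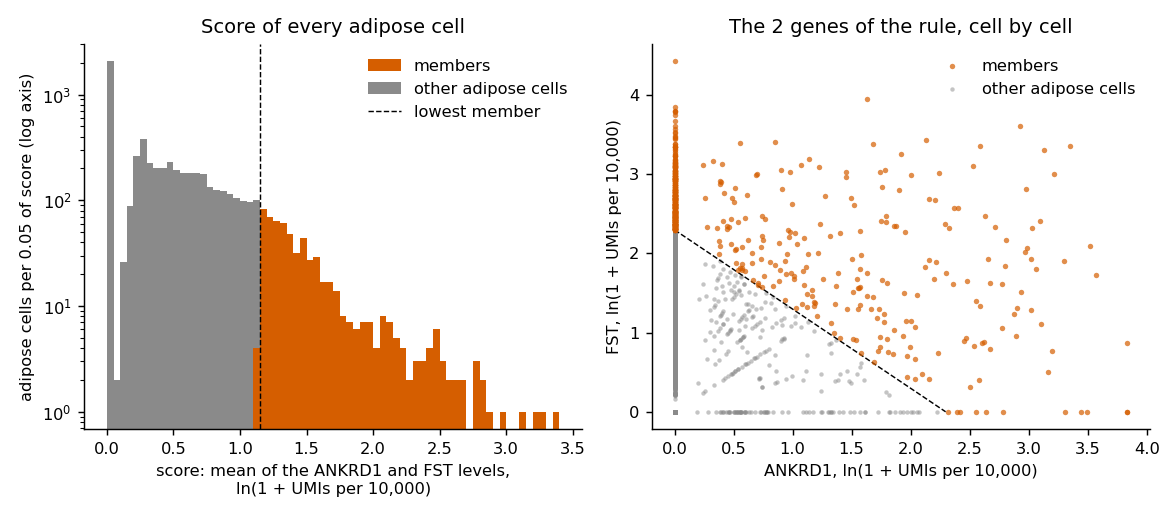
Left, adipose cells per 0.05 of score (log axis), with members in orange and other adipose cells in grey and a dashed line at the lowest member. Right, the FST level of each cell against its ANKRD1 level, both as the natural log of 1 plus UMIs per 10000. The distribution runs through the threshold without a gap, and 370 members sit on the axis where ANKRD1 is 0.

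Free RNA in the liquid of the droplets was read from barcodes of 10 to 100 UMIs. It held ANKRD1 at 101 CPM, above the 7.69 CPM of the other adipose cells, and FST at 151 CPM, close to their 157 CPM. Single ANKRD1 or FST UMIs in other cells may therefore be free RNA, and their part was not tested. In the blood library, 91 cells with macrophage markers give a reading in another cell type. Of them, 4.4% held ANKRD1 and 13.2% held FST, against 19.1% and 63.0% of all blood cells. These shares are not corrected for depth. The median was 10142 UMIs in the macrophage-marker cells and 24342 UMIs in the blood cells outside that library's top 10%. Scaled for depth, FST was less far apart, at 81.3 CPM (105 UMIs) in the macrophage-marker cells and 121 CPM in those other blood cells. ANKRD1 stood at 3.099 CPM (4 UMIs) in the macrophage-marker cells and 19.1 CPM in those other blood cells. How much of either is free RNA was not tested.

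The members held stromal markers at levels like those of the other adipose cells. The 12 stromal marker genes summed to 21912 CPM in members and 19894 CPM in other adipose cells, and 0 of the 10 that could be tested reached 1.5-fold in either direction. COL1A1, a chain of type I collagen, had 2696 CPM in members and 2048 CPM in other cells. The intermediate filament gene VIM had 14984 CPM in members and 14394 CPM in other cells, which is most of the stromal sum in both groups. Of the defining stromal markers, PDGFRB was at 3.47 CPM in members and 4.08 CPM in other cells, and THY1 at 4.37 CPM in members and 2.95 CPM in other cells. Macrophage markers summed to 8.82 CPM in members and 10.5 CPM in other cells, with 8 of 12 at 0 UMIs in members. Lymphocyte, neutrophil, erythroid and epithelial markers each summed to under 1 CPM in either group. Striated muscle markers, the setting in which ANKRD1 is best known, summed to 6.59 CPM in members and 7.56 CPM in other cells, and 11 of the 15 found were at 0 UMIs in members. Over single cells, the median share of UMIs on each of these other-class lists was 0 in members and in other cells.

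Endothelial and adipocyte markers stood apart from these lists. The 9 adipocyte markers found summed to 31.5 CPM in members and 8.38 CPM in other adipose cells (ratio 3.76, interval 3.30 to 4.28, and 1.60 without the endothelial-marker cells described next), and FABP4 and PPARG, which held most of it in members, are given further on. Endothelial markers summed to 49.8 CPM in members and 22.3 CPM in other adipose cells (ratio 2.23, interval 2.03 to 2.46), with CLDN5 and ESAM at 0 UMIs in members. In the TOP2A-matched cells the endothelial markers summed to 11.0 CPM (ratio 4.53, interval 3.69 to 5.61), and the part of this in the matched ratios was not tested. Of all adipose cells, 35 put at least 0.2% of their UMIs on these markers, and 10 of them (28.6%, interval 14.6% to 46.3%) were members. These 35 cells held ANKRD1 at 654 CPM, FST at 32.0 CPM and the collagen gene COL1A2 at 230 CPM, with ACTA2 at 0. They made up 7 of the 11 members that had ANKRD1 without FST. Without these 35 cells, FABP4, FABP5 and INHBA, among the genes named by rule, moved across the 1.5-fold line described below, INHBA by less than 0.01. The values of the genes that moved most are given beside them.

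Members were deeper than other adipose cells, with a median of 17460 UMIs against 14143 UMIs. The TOP2A-matched cells had a median of 15604 UMIs, so they were also shallower than the members. After thinning to 3000 UMIs, the median was 1416 genes in members and 1428 genes in other cells. The mitochondrial share had a median of 2.87% in members and 2.94% in other cells. No doublet caller was used here, and whether doublets add to the members was not tested. Without the 5% of adipose cells with the most UMIs, 47 genes were higher in members and 9 were lower by the rule given next, beside 63 and 9 with them.

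A gene counted as apart at a ratio of at least 1.5 in either direction with at least 20 CPM in the higher group, leaving out the 2 genes of the rule. Of 5377 genes with that level, 63 (1.17%) were higher in members than in all other adipose cells and 9 (0.167%) were lower, and the median ratio of all tested genes was 0.976. Against the TOP2A-matched cells, 53 of 5389 genes (0.983%) were higher and 9 (0.167%) were lower, with a median ratio of 0.978. Both comparisons use the same members. Of the 63 genes, 24 reached 20 CPM in the members alone, so they could count only as higher, and 39 reached it in both groups; of the 9 lower genes, 4 reached it in the other cells alone. The counts within gene lists below are read against these small shares.

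After FABP4, described further on, the contractile gene ACTA2 had the highest ratio of all tested genes. Of 20 tested genes linked to SRF and MRTF, 7 were higher in members and 0 were lower, with a median ratio of 1.26 beside 0.976 for all genes, and 7 were higher and 0 lower against the matched cells. Of the 7, ACTG2 was tested only through its level in members, which leaves 6. ACTA2, smooth muscle alpha-actin, had 311 CPM in members and 93.1 CPM in other cells, a ratio of 3.34 (interval 3.21 to 3.48) that was 3.17 against the matched cells. At 3000 UMIs per cell, 34.0% of members (interval 30.2% to 37.9%) and 16.0% of other cells held an ACTA2 UMI. More members held it, and its 10 richest members held 28.2% of its UMIs, so it was spread over many cells but unevenly. ACTG2, the smooth muscle gamma-actin, had 24.8 CPM in members and 9.11 CPM in other cells, a ratio of 2.72.

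The other contractile genes followed in descending order. MYL9, a regulatory light chain of smooth muscle myosin, had 99.7 CPM in members and 43.3 CPM in other cells (ratio 2.30, interval 2.15 to 2.47). TAGLN, the actin-binding protein transgelin, had 65.7 CPM in members and 29.5 CPM in other cells (ratio 2.23). TPM2, a tropomyosin that lies along actin filaments, had 759 CPM in members and 378 CPM in other cells (ratio 2.01, interval 1.96 to 2.06). The calponins CNN1 and CNN2 had ratios of 1.60 and 1.57, with CNN1 at 116 CPM in members and 72.6 CPM in other cells. The general cytoskeletal actins did not reach the threshold: ACTB had 7169 CPM in members and 6255 CPM in other cells, and ACTG1 had a ratio of 1.09. The ratio of SRF itself was not read, since it stood under 20 CPM.

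The smooth muscle and pericyte markers, which share ACTA2, ACTG2, CNN1 and TAGLN with the list above, summed to 557 CPM in members and 246 CPM in other cells. Of the 5 tested, 4 were higher, among them ACTG2, which was tested only through its level in members. The fifth, the pericyte proteoglycan gene CSPG4, had 33.9 CPM in members and 39.5 CPM in other cells. The markers most specific to mature smooth muscle and pericytes were nearly missing: MYH11 had 0.178 CPM in members, and DES, RGS5, MCAM and KCNJ8 had 0 UMIs. Per cell, the median share of UMIs on this list was 0.0289% in members and 0.0149% in other cells.

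Genes linked to YAP and TEAD showed 3 of 13 tested genes higher and 0 lower, with a median ratio of 1.18, and the same counts against the matched cells. CCN2, a matricellular protein and common YAP readout, had 881 CPM in members and 531 CPM in other cells (ratio 1.66, interval 1.62 to 1.70). Its relative CCN1 had 465 CPM in members and 293 CPM in other cells (ratio 1.59). CRIM1, a membrane protein that binds bone morphogenetic proteins, had 90.3 CPM in members and 46.4 CPM in other cells (ratio 1.95, and 1.86 without the endothelial-marker cells). Other genes of the list stayed near 1: AMOTL2 had 78.3 CPM in members and 60.5 CPM in other cells, and AXL had 134 CPM in members and 113 CPM in other cells. The mediator WWTR1 (TAZ) had 39.1 CPM in members and 44.8 CPM in other cells, and YAP1 was under 20 CPM in both groups. ANKRD1 belongs to this list and is not counted in it.

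**Figure D2:**
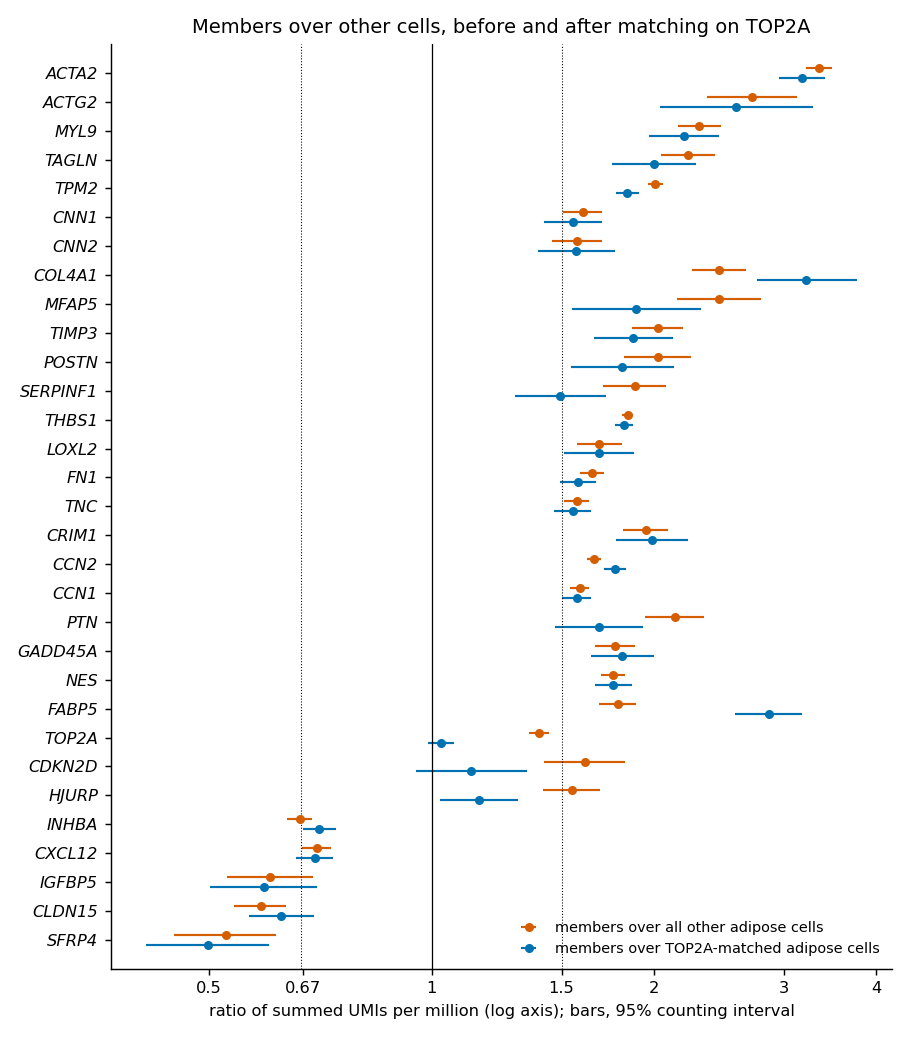
Ratios of CPM (log axis) for genes given in the text, members over all other adipose cells in orange and members over TOP2A-matched adipose cells in blue, with 95% counting intervals as bars and dotted lines at 1.5-fold either way. THBS1, CCN1 and NES have nearly the same ratio in both comparisons. CDKN2D and HJURP lie nearer to 1 against the matched cells, as does TOP2A, on which the cells were matched. FABP5 and COL4A1 lie further from 1 there. Endothelial markers summed to 11.0 CPM in the matched cells and 22.3 CPM in all other adipose cells.

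Matrix genes were the other large group. Of 19 tested proteoglycan and matrix glycoprotein genes, 6 were higher in members (5 against the matched cells) and 0 were lower, with a median ratio of 1.22. Of the 6, MFAP5 was tested only through its level in members, which leaves 5. THBS1, thrombospondin 1, had 1399 CPM in members and 759 CPM in other cells (ratio 1.84, interval 1.81 to 1.88), and at 3000 UMIs 81.8% of members and 68.6% of other cells held it. FN1, fibronectin, had 299 CPM in members and 181 CPM in other cells (ratio 1.65). TNC, tenascin C, had 283 CPM in members and 180 CPM in other cells (ratio 1.57). POSTN, periostin, had 41.4 CPM in members and 20.5 CPM in other cells (ratio 2.03), and the microfibril gene MFAP5 had 27.5 CPM in members and 11.2 CPM in other cells (ratio 2.45). SPP1, osteopontin, was the sixth, with a ratio of 1.59 that was 1.42 against the matched cells. The small proteoglycan DCN had 370 CPM in members and 377 CPM in other cells.

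Among the 11 tested collagens, COL4A1 was the only gene that passed the threshold. This basement membrane collagen had 66.8 CPM in members and 27.3 CPM in other cells (ratio 2.45, interval 2.25 to 2.66), and 2.32 without the 35 endothelial-marker cells. COL1A1 and COL1A2, the 2 chains of type I collagen, each had a ratio of 1.32. Of 17 matrix remodelling genes, 3 were higher and 0 were lower: the metalloproteinase inhibitor TIMP3 (71.1 CPM in members and 35.2 CPM in other cells, ratio 2.02), the secreted serpin SERPINF1 (46.4 CPM in members and 24.6 CPM in other cells, ratio 1.88) and the collagen cross-linking enzyme LOXL2 (84.6 CPM in members and 50.1 CPM in other cells, ratio 1.69). The TGF-beta list as a whole had 0 of 11 genes apart in either direction, with a median ratio of 0.928.

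Single genes of other lists completed the set. PTN, the growth factor pleiotrophin, had 53.5 CPM in members and 25.02 CPM in other cells (ratio 2.14), and 1.68 against the matched cells. ITGA1, an integrin that binds collagen, had a ratio of 1.81. ITGA1 reached 20 CPM in the members alone, so it could count only as higher. NES, the intermediate filament nestin, had 302 CPM in members and 172 CPM in other cells (ratio 1.76, interval 1.69 to 1.83). GADD45A, a stress-induced growth arrest gene, had 109 CPM in members and 61.5 CPM in other cells (ratio 1.77), and IFIT1, an interferon-induced gene, had a ratio of 1.64 with 1 of 2 genes of its list apart. ERRFI1, a feedback inhibitor of the EGF receptor, had a ratio of 1.67, and CRIP1, a LIM-domain protein, had the same ratio.

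Several genes outside the naming rule are given here because of their values. The actin cross-linker ACTN1 had 364 CPM in members and 229 CPM in other cells (ratio 1.59). The TEAD cofactor VGLL3 had 25.8 CPM in members and 14.96 CPM in other cells (ratio 1.73). The basement membrane protein NID1 had a ratio of 1.92, the myosin MYO1D 2.86, the Wnt inhibitor DKK2 2.57 and the cadherin CDH13 2.43. All were under 35 CPM in members except ACTN1. All except ACTN1 also reached 20 CPM in the members alone, so they could count only as higher.

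FABP4, a fatty acid carrier of adipocytes and of capillary endothelium, had the highest ratio of all tested genes, at 20.4 CPM in members and 1.48 CPM in other cells (ratio 13.8, interval 11.0 to 17.3). Its 229 UMIs in members lay in 10 cells, and 98.7% of them lay in members with endothelial markers. Without the 35 endothelial-marker cells the ratio was 0.804. FABP4 reached 20 CPM in the members alone, so it could count only as higher. FABP5, a related carrier, had 135 CPM in members and 75.6 CPM in other cells (ratio 1.79), and 1.29 without those cells. Of the other adipocyte markers, PPARG, a nuclear receptor that drives fat cell differentiation, was under the 20 CPM minimum, at 6.95 CPM in members and 2.71 CPM in other cells (ratio 2.56, interval 1.95 to 3.32, and 2.64 without the endothelial-marker cells), with UMIs in 56 members. LPL had 1.34 CPM in members and 1.35 CPM in other cells, and PLIN1 had 0.535 CPM in members and 0.526 CPM in other cells. ADIPOQ, LEP and PLIN4 had 0 UMIs in members.

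Fewer genes were lower in members. SFRP4, a secreted Wnt antagonist, had 15.2 CPM in members and 28.9 CPM in other cells (ratio 0.526, interval 0.448 to 0.615), and its 10 richest members held 54.97% of its UMIs. SFRP4 reached 20 CPM in the other cells alone, so it could count only as lower. IGFBP5, an insulin-like growth factor binding protein, had 21.5 CPM in members and 35.5 CPM in other cells (ratio 0.605). CLDN15, a claudin of tight junctions, had 57.6 CPM in members and 98.0 CPM in other cells (ratio 0.587), a difference spread over the cells: 18.1% of members and 24.7% of other cells held it at 3000 UMIs. TNFAIP8L3 had a ratio of 0.658. The 5 remaining genes of the 9 were INHBA, described next, and 4 outside the naming rule, named here to complete the 9. Those 4 were WNT11, USP37 and EPSTI1, with ratios of 0.581, 0.634 and 0.655, and a calcitonin gene-related peptide gene. Of the 9 lower genes, 4 reached 20 CPM in the other cells alone. Apart from SFRP4, these were all outside the naming rule, and they could count only as lower.

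Of the activin genes around FST, INHBA was lower in members and the others tested stayed within 1.5-fold. INHBA, whose product forms the activin that follistatin binds, had 231 CPM in members and 349 CPM in other cells (ratio 0.663, interval 0.637 to 0.690). Against the matched cells its ratio was 0.705, short of the threshold. Without the endothelial-marker cells it was 0.6673, just short of it, and over 13 other settings, that one included, it lay between 0.535 and 0.787 and passed the threshold in 4. It was held by 40.2% of members (interval 36.3% to 44.3%) and 48.5% of other cells (interval 47.1% to 49.8%) at 3000 UMIs. The follistatin-like genes were level, with FSTL1 at 467 CPM in members and 460 CPM in other cells and FSTL3 at 108 CPM in members and 106 CPM in other cells. The other tested members of the list were the accessory receptor TGFBR3, with 36.6 CPM in members and 36.2 CPM in other cells, and the signal transducer SMAD4, with 46.5 CPM in members and 52.9 CPM in other cells. The activin receptors ACVR1, ACVR1B, ACVR2A and ACVR2B were under 20 CPM in both groups. Of 5 tested genes, 1 was lower and 0 were higher, with 0 apart against the matched cells.

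Chemokine genes included 0 of 6 past the threshold. CXCL12, a homing signal for blood-forming cells, had 186 CPM in members and 265 CPM in other cells (ratio 0.700), and CCL2, which attracts monocytes, had 149 CPM in members and 210 CPM in other cells (ratio 0.710, and 0.904 against the matched cells). The urokinase receptor PLAUR had 125 CPM in members and 179 CPM in other cells. S100A2 and TENT5A were lower only against the matched cells, with ratios of 0.635 and 0.663, beside 0.67 and 0.686 against all other cells. RSPO3, a Wnt agonist, and MYC were higher only against the matched cells, with ratios of 1.53 and 1.53, beside 1.48 and 1.43 against all other cells. The histone, respiratory chain, cholesterol and integrated stress response lists had 0 genes apart in either direction and in either comparison.

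TOP2A, a topoisomerase gene that is highest in G2 and M phase, stood at 459 CPM in members and 328 CPM in other cells, a ratio of 1.40 that is under the threshold, and at 445 CPM in the matched cells. No TOP2A UMI was found in 102 members (16.7%) and in 23.7% of other cells. The share of adipose cells that were members was 7.29% (interval 5.98% to 8.77%) without a TOP2A UMI. The remaining cells were cut into 4 equal bins of rising TOP2A, where it was 6.57%, 7.34%, 11.8% and 17.6% (interval for the last 15.4% to 19.9%). FST followed the same bins, at 185 CPM without TOP2A and at 205, 212, 335 and 454 CPM in the 4 bins of rising TOP2A. ANKRD1 did not: it stood at 54.7 CPM without TOP2A and at 32.4, 35.0, 36.9 and 37.3 CPM in those bins. Depth moved with the bins too, at a median of 12815 UMIs without TOP2A and 18353 UMIs in the highest bin, and its part was not tested.

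Genes of the cell cycle lists were compared in both ways. Among 30 G2 and M phase genes, 1 was higher against all other cells and 0 against the matched cells, and the list's summed ratio was 1.13 in the comparison with all other cells and 1.00 in the matched one. TOP2A, on which the cells were matched, is itself highest in G2 and M phase. The matched values of cell cycle genes are therefore not independent of the matching. The centromere protein gene HJURP had 54.4 CPM in members and 35.1 CPM in other cells (ratio 1.55), and 1.16 against the matched cells. The cyclin-dependent kinase inhibitor CDKN2D had a ratio of 1.61, and 1.13 against the matched cells. In the comparison with all other cells, CDKN2D reached 20 CPM in the members alone, so there it could count only as higher. S phase genes had 0 of 21 apart in both comparisons, with a median ratio of 0.894 over all other cells and 0.906 over the matched cells. Among cells with no TOP2A UMI at all, 102 members against 1298 others, ACTA2 stood at 527 CPM in members and 151 CPM in the others (ratio 3.48, interval 3.22 to 3.76). TAGLN in those cells stood at 122 CPM in members and 41.2 CPM in the others, and COL4A1 at 138 CPM in members and 36.8 CPM in the others. These 2 groups were not alike in their cell cycle genes. The G2 and M phase list summed to 1251 CPM in members and 1847 CPM in the others (ratio 0.678), and the S phase list to 974 CPM in members and 1450 CPM in the others (ratio 0.671). Endothelial markers differed as well, at 138 CPM in members and 45.2 CPM in the others (ratio 3.06). The part of either in the ratios of the other genes, COL4A1 among them, was not tested.

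The same genes were followed along the whole score, in cells with a score of 0 and in 7 bins above it. ACTA2 stood at 67.3 CPM at a score of 0, between 75.9 and 149 CPM in the 6 bins below the members, and at 311 CPM in members. TPM2 stood at 323 CPM at a score of 0, at 462 CPM in the bin just below the members and at 759 CPM in members. THBS1 stood at 667, 1018 and 1399 CPM at the same places, and NES at 151, 201 and 302 CPM. INHBA stood at 390, 306 and 231 CPM there, CLDN15 at 111, 75.5 and 57.6 CPM, and CXCL12 at 294, 229 and 186 CPM. SFRP4 was uneven along the score, at 31.4 CPM at a score of 0 and 39.5 CPM in the lowest bin above 0. In the later bins below the members it lay between 21.8 and 29.7 CPM. It stood at 28.9 CPM just below the members and at 15.2 CPM in members. For ACTA2, TPM2, THBS1, NES, INHBA, CLDN15 and CXCL12 the largest step between neighbouring bins was the last, into the members. The bins hold like numbers of cells and not like ranges of score: the members span 1.15 to 3.35 and the bin below them 0.861 to 1.147, so the last step covers a wider range. INHBA, at 329 CPM in the lowest bin above 0, and CXCL12, at 258 CPM there, were nearly as far apart at the first step. Depth was not even along it, since the lowest bin above 0, where 1 or a few UMIs give the score, had a median of 18632 UMIs, and cells at 0 had 13033 UMIs.

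**Figure D3:**
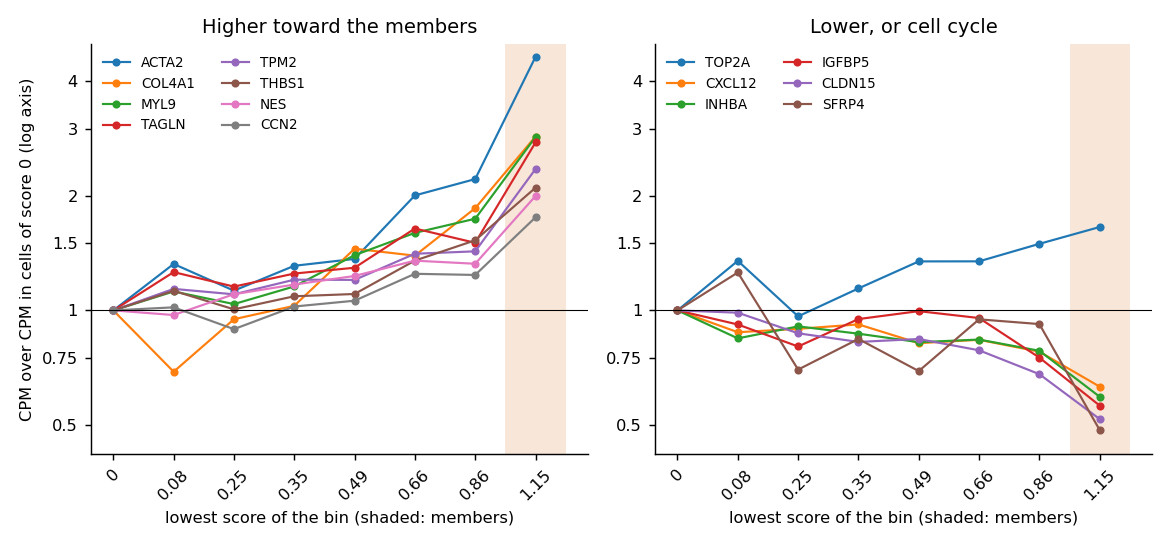
CPM of 14 genes in 8 bins of the score, relative to cells of score 0 (log axis), with the members shaded at the right. The contractile and matrix genes on the left are highest in the members, whose bin spans the widest range of score, and CLDN15, INHBA and CXCL12 on the right are lowest there.

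Members with both genes were then set against members with FST and no ANKRD1 UMI, groups that are smaller and so have wider counting error. Of 5431 genes, 100 (1.84%) were higher and 114 (2.1%) were lower in the 228 members with both genes than in the 370 with FST and no ANKRD1. Since a cell with one gene low enters only with the other gene high, the FST level itself is set by the rule: 897 CPM in members with both genes and 1502 CPM in members without ANKRD1. Endothelial markers moved with this split, at 38.5 CPM in members with both genes and 4.95 CPM in members without ANKRD1 (ratio 7.78), and their part in the ratios below was not tested. Contractile genes were higher in the members with both genes. ACTA2 had 521 CPM in members with both genes and 161 CPM in members without ANKRD1 (ratio 3.23, interval 3.0 to 3.47), beside 93.1 CPM in other adipose cells. TPM2 had 1065 CPM in members with both genes and 535 CPM in members without ANKRD1, and CNN1 had 161 CPM in members with both genes and 81.7 CPM in members without ANKRD1. Of the 20 SRF and MRTF genes, 8 were higher and 0 were lower. In this split, a gene that reached 20 CPM in the higher group alone could count only in that direction. How many genes did so, here and in the lists that follow, was not counted.

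Matrix genes were higher in the same members, with 6 of 19 glycoprotein genes higher and 0 lower. CCN2 had 1187 CPM in members with both genes and 623 CPM in members without ANKRD1, THBS1 had 1856 CPM in members with both genes and 1012 CPM in members without ANKRD1, and COL1A1 had 3438 CPM in members with both genes and 2176 CPM in members without ANKRD1. NES was level, at 309 CPM in members with both genes and 293 CPM in members without ANKRD1. INHBA had 153 CPM in members with both genes and 291 CPM in members without ANKRD1 (ratio 0.523). CSF1, a macrophage growth factor, had 906 CPM in members with both genes and 1663 CPM in members without ANKRD1, and IL1RL1, the receptor for interleukin 33, had 535 CPM in members with both genes and 980 CPM in members without ANKRD1. CXCL12 had 138 CPM in members with both genes and 217 CPM in members without ANKRD1. Of the 6 chemokine and cytokine genes 3 were lower, and of the 30 G2 and M phase genes 15 were lower, with a median ratio of 0.676 beside 0.946 for all genes. TOP2A stood at 341 CPM in members with both genes, 546 CPM in members without ANKRD1 and 328 CPM in other adipose cells. FST, which the rule sets higher in members without ANKRD1, rose with TOP2A over all adipose cells. The cell cycle values of this split are therefore not independent of how members were chosen, and the part of that choice in them was not tested.

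**Figure D4:**
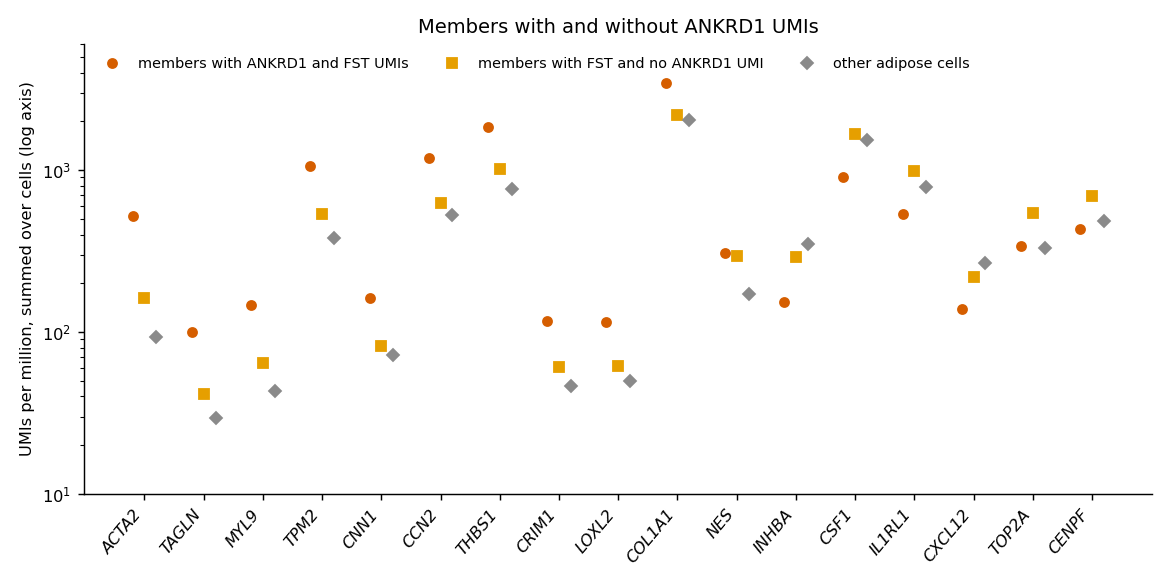
CPM (log axis) of 17 genes in members with ANKRD1 and FST UMIs (orange circles), members with FST and no ANKRD1 UMI (yellow squares) and other adipose cells (grey diamonds). The contractile genes are highest where ANKRD1 is present, and TOP2A and CENPF are highest in members without it.

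Each gene was also used alone. The 490 adipose cells with any ANKRD1 UMI, 239 of them members, had an ACTA2 ratio of 4.0 over the rest, a CCN2 ratio of 2.0 and a TOP2A ratio of 0.88. The 609 cells highest in FST, 459 of them members, had an ACTA2 ratio of 2.31, a CCN2 ratio of 1.30 and a TOP2A ratio of 1.62. INHBA had ratios of 0.535 for ANKRD1 alone and 0.787 for FST alone.

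The rule was then applied to the other libraries, which it did not use, though they share the donor. In peripheral blood the top 10% were 319 of 3192 cells. FST stood at 1042 CPM in these and 121 CPM in the other blood cells, and ANKRD1 at 484 CPM in these and 19.1 CPM in the other blood cells, with an ANKRD1 UMI in 81.5% of the high-scoring cells. Bone marrow could not fill 10%: 875 of 9281 cells scored above 0, ANKRD1 was found in 10 of them, and the choice rested on FST, at 153 CPM in these cells. Cells with at least 0.2% of UMIs on macrophage markers, 91 in blood and 790 in marrow, are still in these counts and levels, 1 of them among the high-scoring blood cells and 33 among the marrow cells with a score. They were left out of the gene ratios that follow. There too, a gene that reached 20 CPM in the higher group alone could count only in that direction, and such genes were not counted apart.

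Of the 63 genes higher in the adipose members, 55 had at least 20 CPM in blood. Of these, 44 had a ratio above 1 there, beside 46.0% of all tested blood genes, and 13 were at least 1.5-fold higher, beside 0.728% of all tested blood genes; their median ratio was 1.24. THBS1 had 1179 CPM in the high-scoring blood cells and 500 CPM in the other blood cells (ratio 2.36), CNN1 84.7 CPM in the high-scoring and 36.9 CPM in the other blood cells (ratio 2.29), and NES 147 CPM in the high-scoring and 74.2 CPM in the other blood cells (ratio 1.98). ACTA2 had 462 CPM in the high-scoring and 323 CPM in the other blood cells, a ratio of 1.43. TNC went the other way, with 144 CPM in the high-scoring and 370 CPM in the other blood cells. Of the 9 lower genes, 7 were tested in blood, 0 were above 1 and 4 were at least 1.5-fold lower, beside 1.89% of all tested blood genes. SFRP4 had 206 CPM in the high-scoring and 514 CPM in the other blood cells, and IGFBP5 34.8 CPM in the high-scoring and 140 CPM in the other blood cells.

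In marrow, 48 of the 63 could be tested. A ratio above 1 was found for 40 of them, beside 40.4% of all tested marrow genes, and 4 were at least 1.5-fold higher, beside 0.341% of all tested marrow genes. The median ratio of the 48 was 1.13. THBS1 had 281 CPM in the cells with a score and 185 CPM in the other marrow cells (ratio 1.52, and 1.47 with the macrophage-marker cells kept), PTN had a ratio of 1.67 and SERPINF1 one of 1.56, while ACTA2 had a ratio of 1.43. Of the lower genes 4 were tested, 0 were above 1, and INHBA, with 106 CPM in the cells with a score and 164 CPM in the other marrow cells, was the 1 gene at least 1.5-fold lower (ratio 0.646), beside 0.265% of all tested marrow genes. The median depth was 29011 UMIs in the high-scoring blood cells and 24342 UMIs in the other blood cells, and 11410 UMIs in the marrow cells with a score and 8948 UMIs in the other marrow cells, with the macrophage-marker cells included. The part of depth in these ratios was not tested.

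**Figure D5:**
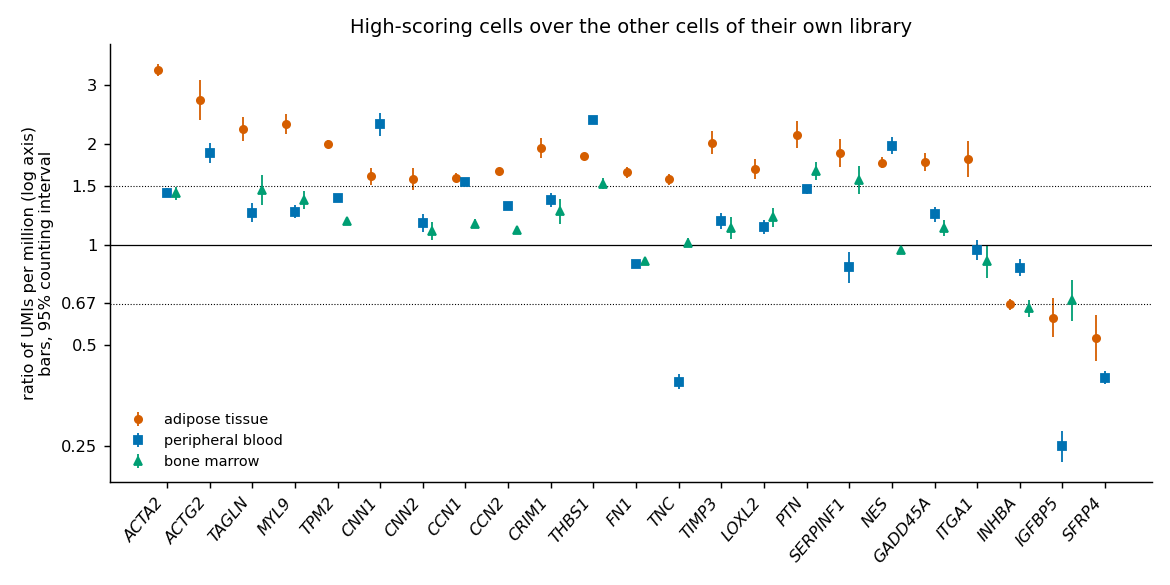
Ratio of CPM (log axis) in high-scoring cells over the other cells of the same library for 23 genes, in adipose tissue (orange), peripheral blood (blue) and bone marrow (green), with 95% counting intervals and dotted lines at 1.5-fold. Genes under 20 CPM in blood or marrow are left out there. THBS1 lies above 1.5 in all 3 libraries, and TNC lies below 1 in blood alone.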

How the data were processed

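The deposited values are raw UMI counts per gene and barcode of 3 libraries, made, per the labels' protocols, with the 3' v3.1 kit of 10x Genomics. Cell Ranger is named with version 6.1.1 in the submitters' processing notes and 4 in the file headers; those notes name the build ARS-UCD1.2. No sequences or coordinates were used here.

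A barcode was a cell at or above the 99th percentile of the top 3000 barcodes' totals divided by 10, 4439 UMIs in adipose tissue. This left 6088, 9281 and 3192 cells of adipose tissue, marrow and blood, with median depths of 14391, 9096 and 24884 UMIs. Pairs of libraries shared 4 to 10 cell barcodes. No cell had under 500 genes or over 20% mitochondrial UMIs. Doublets were not called.

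UMIs were summed over cells, scaled to CPM and divided between groups. Ratios have exact conditional binomial intervals and shares Clopper-Pearson intervals, both at 95%. Each member was matched to the unused cell nearest in TOP2A, and total UMIs served only to break ties. The members, rule and 41 gene lists (676 of 705 entries found) were chosen with earlier results of these data known, so no list supports another independently. Unless said otherwise, genes are named by rule: at 50 CPM or more, the 15 largest ratios each way (10 against matched cells), list members 1.5-fold apart, the 2 most abundant of each list, and TOP2A. Symbols are those of the files. How reads shared by near-identical genes were counted is not stated, so ratios of close paralogs such as the actins are uncertain to that degree. On simulated counts for 5325 genes of the first comparison, 200 of 200 genes at 2-fold each way and 0 of 200 at 1.2-fold were counted. Those counts varied by counting error alone, and the folds were put only on genes well above the 20 CPM minimum. No fold at 1.5 was simulated. This checks the calculation and not the calls of genes that are uneven between cells. Python 3.11.15, numpy 2.4.6, scipy 1.17.1, pandas 2.3.3 and, for TMM factors, edgeR 4.0.16 were used.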

Additional observations from a re-analysis of the deposited data

Results flagged for a closer look

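Genes that stood apart in opposite directions in high-scoring cells of adipose tissue and of blood were TNC and APOE. TNC had a ratio of 1.57 in the adipose members and 0.389 (interval 0.369 to 0.41) in the high-scoring blood cells, each over the other cells of its library. APOE, a lipid carrier, had 23.7 CPM in the adipose members and 15.6 CPM in the other adipose cells, a ratio of 1.52, against 13.6 CPM in the high-scoring blood cells and 26.4 CPM in the other blood cells, a ratio of 0.517 (interval 0.431 to 0.615). APOE reached 20 CPM in adipose tissue in the members alone, so there it could count only as higher. In blood APOE reached it in the other cells alone, so there it could count only as lower. With 1 library per tissue neither difference was tested.

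ANKRD1 also appeared in barcodes too small to be cells, which no comparison uses. Adipose barcodes of 10 to 100 UMIs held it at 101 CPM, above the 39.3 CPM of all adipose cells together. FST in the same barcodes stood at 151 CPM, below the 284 CPM of all adipose cells, and TOP2A at 192 CPM, below 344 CPM.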

How the results depend on the processing

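With 63 genes higher and 9 lower over all other adipose cells, and 53 higher and 9 lower over the matched cells, the counts moved with the choice of members, the cells they were set against and the threshold. The following are in the order higher and lower over all, then higher and lower over matched, where they moved by over 1.5 times. A top 20% gave 32, 4 and, of the matched pair, 3 lower. A top 5% gave 30 lower, 107 and 41. ANKRD1 alone gave 112, 23, 88 and 22, and FST alone 28, 4, 28 and 0. The score after thinning to 3000 UMIs gave 36 and 5, and choosing members on 1 of 2 equal parts of the UMIs gave 22 lower over matched. A minimum of 50 CPM gave 32, 3, 28 and 3, one of 5 CPM 136, 49, 149 and 65. A 2-fold threshold gave 15, 0, 12 and 1, and one between 1 and 1.5-fold gave 210, 94, 199 and 113. Cells with 0 TOP2A UMIs, 102 members against 1298 others, gave 159 and 188, TMM factors 5 lower and 3 matched cells per member 5 lower. These alternatives change the cells or the threshold by construction; why the score after thinning or TMM moved a count was not tested.

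The directions that changed were FABP4, with a ratio of 0.0661 for FST alone and 0.804 without endothelial-marker cells (a setting chosen after seeing the data), FABP5 with 0.754 for FST alone, and, for ANKRD1 alone, CDKN2D with 0.989 and HJURP with 0.980. Over 13 settings the ACTA2 ratio lay between 2.31 and 4.24 and the TPM2 ratio between 1.52 and 2.39. COL4A1, MYL9, TAGLN, TIMP3, PTN and NES passed 1.5 in all 13, whereas CCN1, CCN2 and CNN2 passed in 11, FN1, CNN1 and TNC in 9, SPP1 and TBX18 in 8 and APOE in 7; INHBA was at least 1.5-fold lower in 4, TNFAIP8L3 in 7, IGFBP5 in 10, SFRP4 in 11 and CLDN15 in 12. Of these genes, TBX18 and APOE reached 20 CPM in the adipose members alone. TMM factors shifted the ratios by 0.01 (log2) over all other cells and 0.03 over the matched cells.

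No paired analysis was possible because each tissue has 1 library, and leaving out a replicate was not possible for the same reason. The 20 CPM minimum is a choice and not a limit of depth, and genes under it, such as YAP1 and the activin receptors, were not called.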
